A study of Mus musculus with 30 samples.

Results

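C-type lectin pattern receptors are surface proteins of myeloid cells that bind sugars of fungi and bacteria and ligands of dying cells. The 10 genes described here were taken by name, through their Ensembl identifiers, and are 10 of the 43629 genes counted: Clec7a, Clec4n, Clec4e, Clec4d, Clec10a, Clec9a, Clec12a, Mrc1, Cd209a and Mgl2. They were measured by sequencing of polyadenylated RNA from mouse bone marrow-derived dendritic cells (BMDCs), which are marrow cells grown with the cytokine GM-CSF. The study asked whether Cacnb3, a regulatory subunit of voltage-gated calcium channels, alters how dendritic cells respond to extracellular ATP, a signal of tissue damage. There were 5 WT and 5 Cacnb3-/- cultures, and each gave 3 libraries, named ctrl, 0p5h and 24h.

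WT mice were C57BL/6J and Cacnb3-/- mice C57BL/6N in the study's methods, so genotype and substrain cannot be told apart. The mice were young adults. All cultures were grown for 6 days before stimulation, and the agent was 500 µM ATP given for 30 min. The labels place the libraries named 24h a day after ATP. For the other sets the library names and the treatment field conflict, because libraries named ctrl carry a field of ATP and those named 0p5h a field of vehicle. Sets are called here by library name, and which of ctrl and 0p5h was exposed to ATP cannot be told from the labels. The labels also do not say whether a culture is 1 animal, so the p-values below measure the spread between these cultures, which may be technical.

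Total counts ran from 8237393 to 32164225 per library, with a median of 19556920. Cacnb3 reads were present under both labels, at 1030 to 2140 CPM (counts scaled to library size with TMM factors) in WT and 572 to 1330 CPM in the libraries labelled Cacnb3-/-. Counts over the whole gene do not say whether a part of it was deleted, so the genotype is the label's throughout. Dendritic cell genes were abundant, with mean levels of 12700 CPM for Cd74, 7420 CPM for H2-Aa, 197 CPM for Itgax and 132 CPM for Zbtb46. Macrophage genes were also present, at 236 CPM for C1qb, 55.7 CPM for Adgre1 and 22.4 CPM for Mertk. Xcr1, which marks type 1 conventional dendritic cells, was at 0.31 CPM. The list of 8 genes for those cells, Xcr1 among them, summed to 1230 to 2970 CPM per library, so Xcr1 does not stand for the list. In the first principal component over cultures (47.9% of the variance), WT culture p974s864 scored -15.0, with the cultures labelled Cacnb3-/-, and culture p974s865, labelled Cacnb3-/-, scored 8.7, on the side of WT. Results that rest on either culture are given with and without it. Both were picked from these same data for lying on the side of the other genotype. Calls between genotypes gained by leaving either out are therefore not independent support.

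These receptors fall into groups by how they signal. Dectin-1, encoded by Clec7a, recognizes fungal β-glucan and carries its own activating motif that recruits the kinase Syk. Dectin-2 (Clec4n), Mincle (Clec4e) and MCL (Clec4d) bind microbial mannans and glycolipids and reach Syk through the adaptor Fc receptor γ chain, encoded by Fcer1g, after which Card9 relays the signal to NF-κB. Clec12a carries an inhibitory motif that recruits phosphatases, Clec9a binds actin exposed by dead cells, and Mrc1, Clec10a, Mgl2 and Cd209a take up glycoproteins for degradation and antigen presentation.

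The positions that follow are those of the count table (GRCm38). On chromosome 6 lie Clec4n (123229843 to 123247021, plus strand), Clec4d (123262107 to 123275268, plus) and Clec4e (123281789 to 123289870, minus) as neighbours, and also Clec12a (129342691 to 129365303, plus), Clec9a (129408862 to 129424764, plus) and Clec7a (129461591 to 129472777, minus). Mgl2 (70130329 to 70137550, plus) and Clec10a (70156197 to 70170834, plus) are neighbours on chromosome 11. Mrc1 lies on chromosome 2 (14229392 to 14332057, plus) and Cd209a on chromosome 8 (3743395 to 3748984, minus). Of the 2287 exon bases of Clec7a, 735 are also exon of another annotated gene, and of the 3294 of Clec9a, 184 are also exon of Clec1b. The counter's default leaves reads over such shared bases uncounted, so both genes are undercounted. Clec10a and Mgl2 share 242 windows of 50 bases, which is 10% of the windows of the Clec10a transcript and 13.8% of those of Mgl2, and reads from those stretches cannot be given to either gene with certainty.

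Levels per length spanned the receptors widely. In RPKM (CPM per kilobase of exon; mean ± SD over 10 cultures, each the mean of its 3 libraries), Clec4n stood at 243 ± 124, Clec7a at 119 ± 34.9 and Clec4d at 112 ± 35.1. Clec4e was at 25.9 ± 11.5 RPKM, Mgl2 at 15.97 ± 12.3, Clec12a at 10.7 ± 4.51, Mrc1 at 7.43 ± 5.24 and Clec10a at 6.62 ± 4.62. Clec9a, at 0.466 ± 0.216 RPKM, and Cd209a, at 0.124 ± 0.103 RPKM, were barely detected. By mean level, Clec4n, Clec7a, Clec4d and Clec4e were thus the 4 most abundant of the 10.

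Some neighbours in that order did not differ beyond the spread of the cultures. Clec7a was above Clec4d in 5 of 10 cultures, Clec4e above Mgl2 in 6, Mgl2 above Clec12a in 6 and Mrc1 above Clec10a in 5. Clec12a was above Mrc1 in 8 of 10. Divided by the exon bases that no other gene holds, Clec7a came to 175 ± 51.5 RPKM, above Clec4d in 9 of 10 cultures and below Clec4n in 8 of 10.

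**Figure D1:**
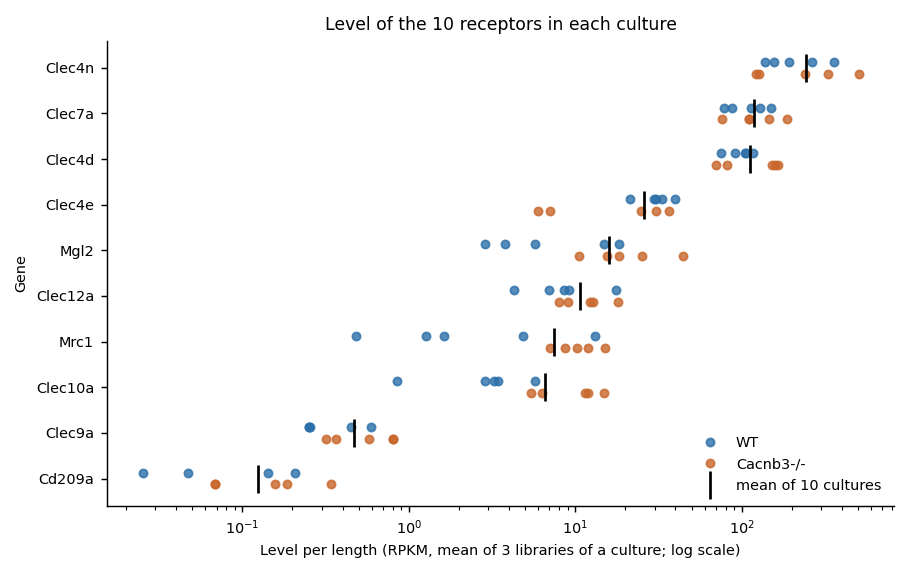
Level of each receptor per length (RPKM, log scale) in each of 10 cultures, WT in blue and Cacnb3-/- in orange, each point the mean of 3 libraries and the black line the mean of 10 cultures. Clec4n, Clec7a and Clec4d lie above 70 RPKM in every culture, while Cd209a stays below 1 RPKM; 1 WT culture with no Cd209a read cannot be drawn on a log axis.

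Cd209a gave 94 reads in all 30 libraries, between 0 and 11 per library, and passed edgeR's filter on low counts only with the libraries of a culture summed. Clec9a gave 11 to 90 reads per library. No difference in Cd209a between genotypes was detectable at this depth (log2 fold change, Cacnb3-/- over WT, 0.87, 95% interval -0.62 to 2.35, edgeR adjusted p = 0.501).

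Adaptors and kinases of C-type lectin receptor signalling were present in all libraries. Tyrobp and Fcer1g, which code for adaptors with activating motifs, averaged 522 and 364 RPKM, Syk 61.5 RPKM, the phosphatase gene Ptpn6 35.8 RPKM and Card9 28.3 RPKM. Fcer1g is the adaptor named above for Clec4n, Clec4e and Clec4d. Of 25 other C-type lectin receptor genes, Clec2d (178 RPKM), Ly75 (61.6 RPKM), which codes for an endocytic receptor, and Cd302 (30.2 RPKM) had the highest levels, and 10 stayed under 1 CPM in all libraries.

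To see how far each receptor's level followed genotype, culture and set, the sum of squares of its log2 CPM over the 30 libraries was divided among them. Clec7a was the only one of the 9 tested receptors for which set took the largest share, 42.0%, against 31.9% for culture within genotype and 2.6% for genotype. Clec10a was the only one led by genotype, 53.1%, against 38.5% for culture and 5.9% for set. For the other 7, culture within genotype was the largest share, from 47.4% for Mgl2 to 75.8% for Clec4n. The medians over all genes were 12.9% for genotype, 46.4% for culture and 7.2% for set.

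**Figure D2:**
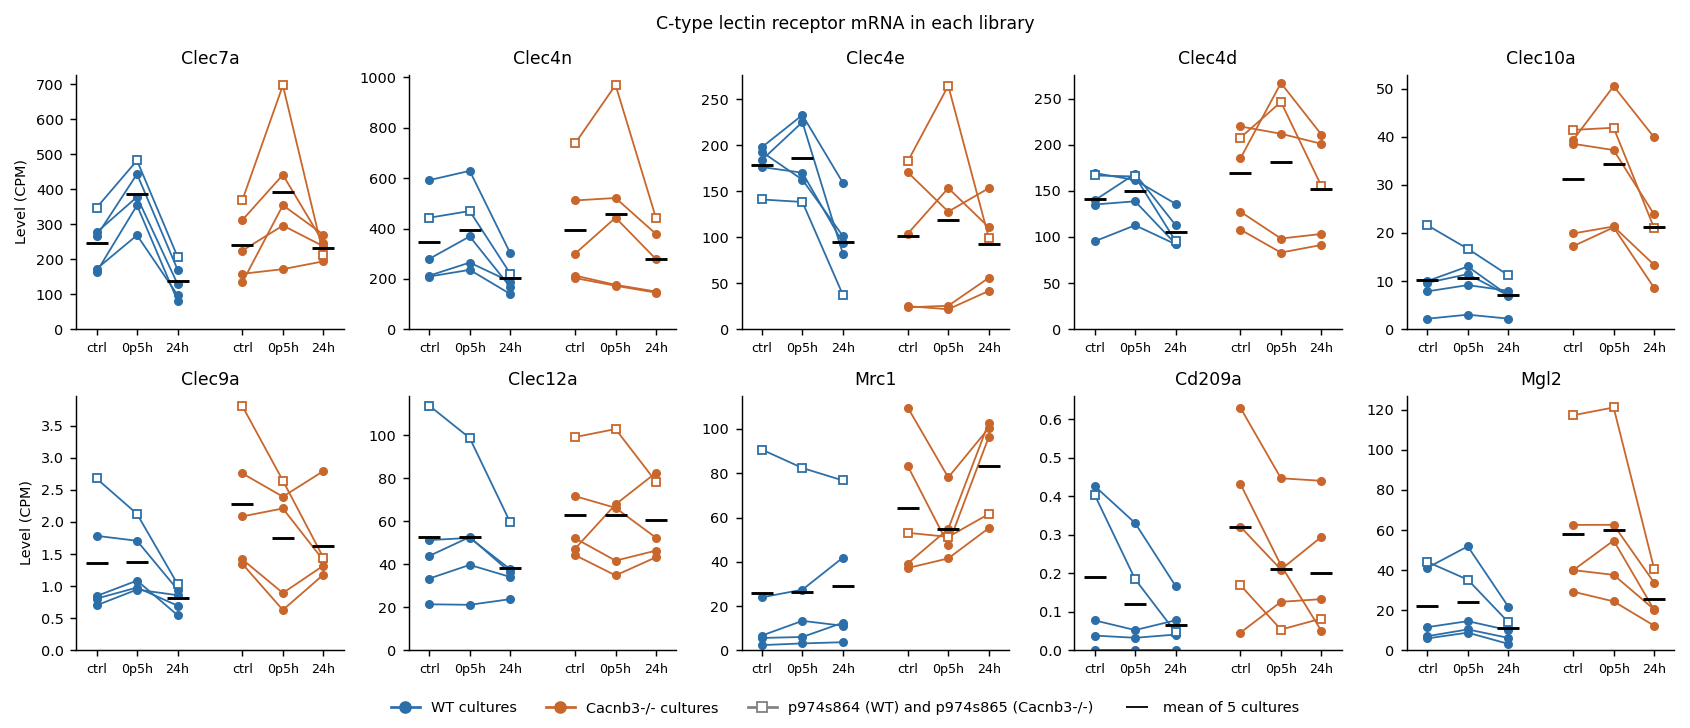
Level of the 10 receptors (CPM, linear axes from 0) in each of 30 libraries, with a line joining the 3 libraries of a culture, WT in blue, Cacnb3-/- in orange and a black bar at the mean of 5 cultures. Clec7a peaks at 0p5h in all 5 WT cultures, Mgl2 is lower at 24h in every culture, and the open square of WT culture p974s864 lies far above the other WT cultures for Mrc1.

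Promoters of the receptors whose levels moved most are shown for reference. They are the 250 bases before the RefSeq transcription start in GRCm38.p6, written 5′ to 3′ on the gene's strand, with matches to searched motifs in capitals. The table of promoters matched 8 of the 10 genes, all but Clec4n and Clec10a. The motifs, searched on both strands, were GAGGAAG (PU.1 and other ETS factors), TTNNGCAA (C/EBP), TGANTCA (AP-1), TGACGTCA (CREB), and the box TATAAA of core promoters. No matches overlapped in the promoters printed here.
Clec7a, chr6:129472780-129473029, minus strand: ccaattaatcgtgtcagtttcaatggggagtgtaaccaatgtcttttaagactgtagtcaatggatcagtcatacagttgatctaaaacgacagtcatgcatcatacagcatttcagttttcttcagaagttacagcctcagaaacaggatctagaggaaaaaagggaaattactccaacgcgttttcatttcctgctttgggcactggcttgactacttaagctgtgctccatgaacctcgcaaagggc
Clec4e, chr6:123289872-123290121, minus strand: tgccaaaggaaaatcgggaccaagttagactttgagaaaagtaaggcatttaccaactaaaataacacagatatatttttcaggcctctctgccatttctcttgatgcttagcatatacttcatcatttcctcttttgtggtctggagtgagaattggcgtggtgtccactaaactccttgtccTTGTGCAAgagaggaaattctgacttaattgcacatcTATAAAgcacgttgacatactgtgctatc
Mgl2, chr11:70130107-70130356, plus strand: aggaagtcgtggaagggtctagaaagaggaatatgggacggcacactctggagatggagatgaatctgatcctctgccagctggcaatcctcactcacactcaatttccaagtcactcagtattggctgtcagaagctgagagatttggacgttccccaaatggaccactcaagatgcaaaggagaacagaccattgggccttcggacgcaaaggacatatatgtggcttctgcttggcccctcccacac
Mrc1, chr2:14229164-14229413, plus strand: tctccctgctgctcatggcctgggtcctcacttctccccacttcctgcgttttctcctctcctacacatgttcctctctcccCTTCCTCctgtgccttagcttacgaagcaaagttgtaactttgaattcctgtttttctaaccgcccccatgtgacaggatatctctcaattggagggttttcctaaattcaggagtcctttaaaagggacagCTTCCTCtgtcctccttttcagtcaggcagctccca

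The Mrc1 promoter held the ETS letters 168 and 36 bases before the start, both on the opposite strand, and the Clec4e promoter held the C/EBP letters 66 bases and the core promoter box 29 bases before it. Among 32851 promoter windows of that length, 10.6% held the ETS letters, 9.56% the C/EBP letters, 12.4% the core promoter box, 6.75% the AP-1 and 1.55% the CREB letters. None of these letters occurred in the Clec7a and Mgl2 windows. Of the others, Clec12a held ETS, C/EBP and AP-1 letters 61, 140 and 213 bases before its start. Clec4d held the ETS letters 241 bases before its start. Clec9a and Cd209a held the core promoter box 226 and 184 bases before theirs. The matches in these last genes, Clec4d, Clec9a and Cd209a, were on the opposite strand.

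Changes between sets were compared within each genotype, 5 against 5 libraries, with edgeR's quasi-likelihood test. A gene is called changed here when its Benjamini-Hochberg adjusted p over all tested genes is below 0.05 and it changes at least 2-fold. Comparisons that involve the same set share its libraries. Libraries of 1 culture deviated together, but this test takes them as unpaired. Values from a fit with the culture as a block are added where they alter a call and for some other changes. A fit with the trend of counts on GC content removed is given where it moves a value by over 1.5 times.

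Clec7a, the β-glucan receptor, was the only receptor called by edgeR when only the libraries compared were fitted, with the filter on low counts, all cultures and no covariate, and the other calls below name the fit that gave them. In WT it stood at 172, 266, 276, 163 and 347 CPM in ctrl, at 268, 443, 378, 354 and 482 CPM at 0p5h and at 97.8, 170.5, 129, 81.6 and 207 CPM at 24h, for cultures p974s846, p974s850, p974s855, p974s856 and p974s864. The libraries at 0p5h were the highest and those at 24h the lowest of each culture, and the 0p5h and 24h groups did not overlap, which held for 3.68% of genes. From 0p5h to 24h Clec7a fell by 1.48 on the log2 scale (SE 0.257, adjusted p = 0.0178), lower in 5 of 5 cultures. It was the 1 called member of 9 tested, where 0.639% of 12830 genes were called, and 0.592% were called lower. With sequencing lane as a covariate, Clec4e (-1.03, adjusted p = 0.0287) and Mgl2 (-1.06, adjusted p = 0.0197) were called as well, where 1.43% of genes were. The call was kept without p974s864 (adjusted p = 0.0141) but lost without p974s846, p974s850, p974s855 or p974s856, with adjusted p = 0.0637, 0.0987, 0.103 and 0.0748 and log2 fold changes between -1.52 and -1.37.

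In the libraries labelled Cacnb3-/-, Clec7a was at 134, 312, 224, 158 and 369 CPM in ctrl, at 354, 441, 296, 172 and 696 CPM at 0p5h and at 270.2, 247, 237, 194 and 213 CPM at 24h, for cultures p974s843, p974s851, p974s852, p974s853 and p974s865. Its 24h libraries lay close together and its 0p5h libraries far apart. The log2 fold change from 0p5h to 24h was -0.74 (SE 0.294, adjusted p = 0.241), with 4 of 5 cultures lower, and the groups overlapped. The difference between genotypes in this change was 0.74 (SE 0.404, adjusted p = 0.680) and, with the block, 0.93 (SE 0.273, adjusted p = 0.108). DESeq2 with the block gave 0.94 (adjusted p = 0.0283), below 2-fold, and edgeR with the GC trend removed gave 0.38 (SE 0.377, adjusted p = 1.0), and no fit called a difference between genotypes in this change.

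From ctrl to 0p5h, Clec7a was higher in 5 of 5 cultures of each genotype, with log2 fold changes of 0.66 (SE 0.229, adjusted p = 0.653) in WT and 0.70 (SE 0.36, adjusted p = 1.0) in those labelled Cacnb3-/-. With the culture as a block the WT value was 0.69 (SE 0.081, adjusted p = 0.000569), below 2-fold, and the other 0.66 (SE 0.158, adjusted p = 0.0699). No receptor was called between ctrl and 0p5h by edgeR, DESeq2 or limma-voom in either genotype, where edgeR called 0.176% of 13085 genes in WT and 0.29% of 12750 in those labelled Cacnb3-/-. At an unadjusted p below 0.05, Clec7a alone passed in WT (4.54% of all genes) and no receptor passed in those labelled Cacnb3-/- (3.99%).

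**Figure D3:**
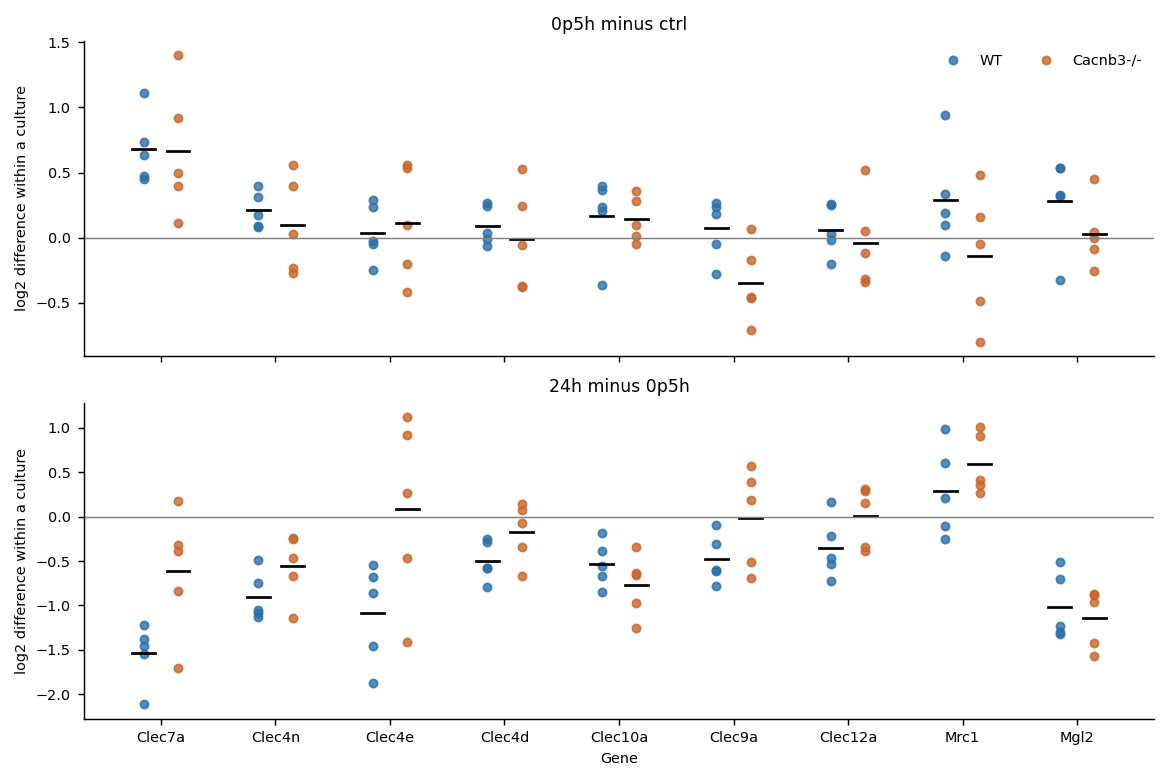
Differences in log2(CPM + 0.5) between 2 libraries of the same culture, 0p5h minus ctrl above and 24h minus 0p5h below, for 9 receptors, with WT in blue, Cacnb3-/- in orange and a black bar at the mean of 5 cultures. Clec7a is above 0 in all 10 cultures in the upper panel, and Mgl2 and Clec4n are below 0 in all 10 in the lower one.

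Of the receptors that pair with Fc receptor γ chain, Clec4e in WT stood at 193, 176, 198, 184 and 141 CPM in ctrl, at 163, 170.3, 233, 225 and 138 CPM at 0p5h and at 101, 93.9, 159, 82.1 and 37.4 CPM at 24h, in the order of cultures above. Each culture was lowest at 24h, yet the groups overlapped through p974s855, which was at 159 CPM, and p974s864. Its log2 fold change from 0p5h to 24h was -0.97 (SE 0.302, adjusted p = 0.217) without the block, and with it Clec4e was called, at -1.08 (SE 0.18, adjusted p = 0.0061). From ctrl to 24h it was -0.91 (SE 0.286, adjusted p = 0.430) and, with the block, called at -1.03 (SE 0.184, adjusted p = 0.0136), where 0.926% of genes were. With a GC trend also removed, both values fell just short of 2-fold, at -0.99 (adjusted p = 0.0042) and -0.95 (adjusted p = 0.0132). Without the block no receptor was called from ctrl to 24h in WT by edgeR, DESeq2 or limma-voom, where edgeR called 0.0152% of genes, and 4 of 9 had an unadjusted p below 0.05, all lower (4.49% of genes).

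In the cultures labelled Cacnb3-/-, Clec4e was split. Cultures p974s852 and p974s853 were at 21.8 to 55.9 CPM in all sets, while p974s843, p974s851 and p974s865 were at 99.7 to 265 CPM. From 0p5h to 24h it was higher in 3 cultures and lower in 2 (log2 fold change -0.35, SE 0.606, adjusted p = 0.762). The difference between genotypes in that change was 0.62 (SE 0.729, adjusted p = 0.795) without the block and 1.15 (SE 0.404, adjusted p = 0.113) with it. With the GC trend removed and no block, the change was -0.62 (SE 0.64) and the difference 0.26 (SE 0.763).

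Clec4n, the most abundant receptor, ranged over 209 to 592 CPM in WT ctrl, 236 to 629 CPM at 0p5h and 140.1 to 302 CPM at 24h. Libraries labelled Cacnb3-/- ranged over 203 to 738, 173 to 970.2 and 145 to 441 CPM. Clec4n was lower at 24h than at 0p5h in 5 of 5 cultures of each genotype, by a median of 1.06 log2 units in WT and 0.46 in the others, and was not called (log2 fold change -0.94, SE 0.285, adjusted p = 0.198 in WT). With the block the values were -0.90 (SE 0.102, adjusted p = 0.00106) in WT and -0.54 (SE 0.127, adjusted p = 0.0106) in the others, both below 2-fold. Clec4d, its neighbour on the chromosome, ranged only over 92.1 to 169 CPM in WT and was lower at 24h than at 0p5h in 5 of 5 WT cultures (log2 fold change -0.49, SE 0.149, adjusted p = 0.197) and in 3 of 5 of the others. With the block the Clec4d values were -0.495 (SE 0.091, adjusted p = 0.00948) in WT, below 2-fold, and -0.17 (SE 0.118, adjusted p = 0.301) in the others.

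Of the galactose-binding lectins, Mgl2 in WT stood at 7.06, 41.1, 5.95, 11.6 and 44.1 CPM in ctrl, at 10.4, 51.9, 8.84, 14.6 and 35.2 CPM at 0p5h and at 6.22, 21.8, 3.23, 10.1 and 14.1 CPM at 24h. Libraries labelled Cacnb3-/- were at 62.5, 39.9, 29.3, 40 and 117 CPM in ctrl, at 62.6, 54.7, 24.4, 37.6 and 121 CPM at 0p5h and at 33.8, 20.2, 12.3, 20.4 and 40.6 CPM at 24h. All 10 cultures were lowest at 24h, although cultures differed so widely that the groups overlapped. From 0p5h to 24h the log2 fold change without the block was -1.12 (SE 0.581, adjusted p = 0.521) in WT and -1.23 (SE 0.412, adjusted p = 0.199) in those labelled Cacnb3-/-. With the block Mgl2 was called in both, at -1.07 (SE 0.139, adjusted p = 0.00201) and -1.16 (SE 0.124, adjusted p = 0.000142).

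Under the block, the called receptors between 0p5h and 24h were thus Clec7a, Clec4e and Mgl2 in WT, 3 of 9, where 1.78% of genes were called, and Mgl2 in those labelled Cacnb3-/-, 1 of 9, where 2.88% were. Without the block no receptor was called in those labelled Cacnb3-/- by edgeR, DESeq2 or limma-voom (edgeR called 0.66% of 12730 genes), and 3 had an unadjusted p below 0.05, of which Mgl2 and Clec7a were lower and Mrc1 higher (17.5% of genes). From ctrl to 24h in those labelled Cacnb3-/- the 3 tools also called none (edgeR 0.0% of genes), and Mgl2 alone had an unadjusted p below 0.05 (log2 fold change -1.19, SE 0.397, adjusted p = 0.444; 10.8% of genes passed). With the block Mgl2 was called there too (-1.13, SE 0.121, adjusted p = 0.00266), the 1 called receptor of 9, where 1.11% of genes were called. It was lower at 24h than in ctrl in 5 of 5 of these cultures, by 0.88 to 1.52 log2 units.

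Clec10a, the other galactose-binding lectin, was lower at 24h than at 0p5h in 10 of 10 cultures, with log2 fold changes of -0.58 (SE 0.45, adjusted p = 0.696) in WT and -0.69 (SE 0.379, adjusted p = 0.347) in those labelled Cacnb3-/-. With the block these values were -0.56 (SE 0.118, adjusted p = 0.0168) and -0.77 (SE 0.133, adjusted p = 0.00229), both below 2-fold. The mannose receptor gene Mrc1 went the other way and was higher at 24h than at 0p5h in 5 of 5 cultures labelled Cacnb3-/- (log2 fold change 0.62, SE 0.223, adjusted p = 0.216, and 0.41, SE 0.179, with the GC trend removed) and in 3 of 5 WT cultures. With the block the Mrc1 value in those labelled Cacnb3-/- was 0.60 (SE 0.123, adjusted p = 0.00546), below 2-fold. It was 0.39 (SE 0.086, adjusted p = 0.00884) with the GC trend also removed. In WT the blocked value was 0.28 (SE 0.172, adjusted p = 0.326). Clec12a ranged over 21.2 to 114 CPM in WT and 34.8 to 103 CPM in the others, and without the block no set comparison had an unadjusted p below 0.05 for it. The median log2 fold change of the 9 receptors from 0p5h to 24h was -0.74 in WT, beside 0.01 over all genes tested, and -0.35 in those labelled Cacnb3-/-, beside 0.00. With the GC trend removed, these medians were -0.69 and -0.62.

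Whether receptor levels differed by genotype was tested within each set and with the 3 libraries of a culture summed. edgeR called no receptor and no other gene in any of these 4 comparisons (0.0% of genes in each), and limma-voom called no receptor. With no filter on low counts, or with all 30 libraries in one fit, edgeR called Clec10a at 24h (adjusted p = 0.0351 and 0.0185), where 1.46% and 4.47% of genes were called. DESeq2 called Clec10a in all 4 and Mgl2 at 24h as well, where it called 0.584% of genes in ctrl, 0.322% at 0p5h, 2.47% at 24h and 0.905% with libraries summed. At an unadjusted p below 0.05, edgeR found Clec10a and Mgl2 in ctrl, at 0p5h and in the sums, all higher in the libraries labelled Cacnb3-/- (7.95%, 8.36% and 11.6% of genes were higher at that level). At 24h, 7 of 9 receptors passed that level, all higher, where 38.4% of genes passed it and 20.1% were higher. With the GC trend removed, 3 of 9 passed it at 24h, Clec10a, Mgl2 and Clec9a, all higher, where 25.8% of genes passed and 12.1% were higher. The 4 that no longer passed were Clec7a, Clec4d, Clec12a and Mrc1.

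Clec10a differed most steadily. In ctrl it was at 7.87, 9.65, 2.19, 10 and 21.6 CPM in WT and at 39.3, 17.3, 19.9, 38.5 and 41.4 CPM in those labelled Cacnb3-/-. At 0p5h it was at 9.17, 11.4, 3.03, 13.04 and 16.7 CPM against 50.5, 21.2, 21.4, 37.2 and 41.9 CPM, and at 24h at 7.999, 7.01, 2.21, 7.03 and 11.2 CPM against 39.9, 8.61, 13.4, 23.9 and 21.02 CPM. The groups did not overlap at 0p5h, which held for 2.05% of genes, while in ctrl and at 24h 1 culture crossed, p974s864 in ctrl and p974s851 at 24h.

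The log2 fold changes of Clec10a, Cacnb3-/- over WT, were 1.63 (SE 0.47, adjusted p = 0.243) in ctrl, 1.71 (SE 0.39, adjusted p = 0.251) at 0p5h, 1.596 (SE 0.438, adjusted p = 0.0515) at 24h and 1.65 (SE 0.418, adjusted p = 0.127) in the sums. Adjusted p-values of DESeq2 for the same 4 were 0.0281, 0.0107, 0.00739 and 0.0092. Without p974s864, a culture picked from these data as stated above, edgeR called Clec10a in ctrl (2.10, adjusted p = 0.0294), at 24h (1.83, adjusted p = 0.0377) and in the sums (1.94, adjusted p = 0.0394) but not at 0p5h (1.92, adjusted p = 0.0827).

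Mgl2, with values given above, had log2 fold changes of 1.42 (SE 0.594), 1.33 (SE 0.528) and 1.22 (SE 0.454) in ctrl, 0p5h and 24h, with adjusted p = 0.279, 0.274 and 0.0772 by edgeR and 0.0350 by DESeq2 at 24h. Leaving out p974s865, its highest culture in each set, gave 0.99, 0.91 and 0.98 by edgeR, all below 2-fold. The unadjusted p-values of that fit were 0.113, 0.0951 and 0.0567. Leaving out p974s864 gave 1.83 in ctrl and 1.49 at 0p5h. WT cultures p974s850 and p974s864 overlapped those labelled Cacnb3-/- in each set, and the other 3 WT cultures lay below all of them.

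Mrc1 depended on 1 culture. WT libraries were at 6.69, 24.0, 2.38, 5.604 and 90.7 CPM in ctrl, at 13.3, 27.4, 3.13, 6.05 and 82.4 CPM at 0p5h and at 11.1, 41.9, 3.69, 12.5 and 76.7 CPM at 24h, the last of each being p974s864. Libraries labelled Cacnb3-/- were at 39.2, 37.2, 109.7, 83.3 and 53.1 CPM in ctrl, at 54.8, 41.5, 78.1, 47.7 and 51.2 CPM at 0p5h and at 103, 55.2, 100.4, 96.4 and 61.6 CPM at 24h. In each set 4 WT cultures lay below every library labelled Cacnb3-/-, and p974s864 lay among or above those.

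With all cultures the log2 fold change of Mrc1 was 1.34 (SE 0.81, adjusted p = 0.404) in ctrl, 1.06 (SE 0.674, adjusted p = 0.434) at 0p5h and 1.53 (SE 0.62, adjusted p = 0.0955) at 24h. Without p974s864 it was 2.76 (SE 0.61, adjusted p = 0.0382), 2.15 (SE 0.506, adjusted p = 0.0833) and 2.28 (SE 0.551, adjusted p = 0.0377). In that fit 2 receptors, Clec10a and Mrc1, were called in ctrl (1.88% of genes) and in the sums (2.54%), 3, with Clec9a in addition, at 24h (5.74%), and none at 0p5h (0.0%).

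**Figure D4:**
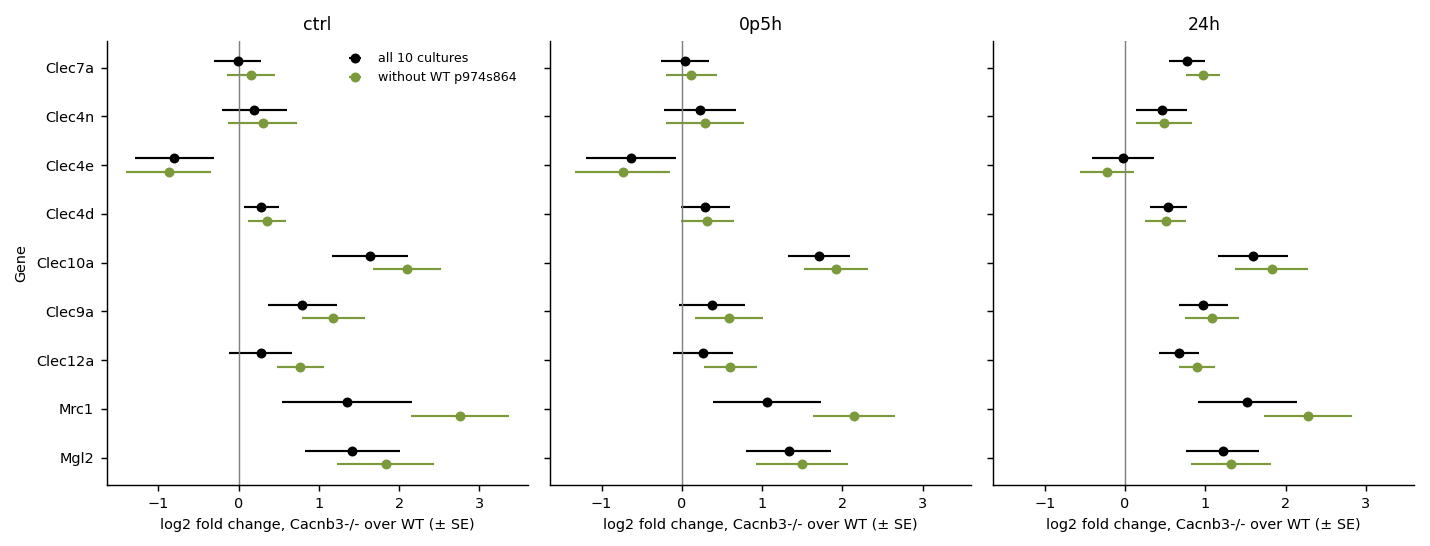
Log2 fold change, Cacnb3-/- over WT, of 9 receptors in the sets ctrl, 0p5h and 24h by edgeR, with bars of 1 SE, for all 10 cultures (black) and without WT culture p974s864 (green). Clec10a lies between 1.596 and 1.71 in the 3 sets, and Mrc1 shifts furthest when p974s864 is left out, from 1.34 to 2.76 in ctrl.

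Clec9a at 24h stood at 0.548, 0.946, 0.696, 0.859 and 1.03 CPM in WT and at 2.79, 1.40, 1.32, 1.18 and 1.44 CPM in those labelled Cacnb3-/-. The groups did not overlap, which held for 6.52% of genes, at levels of at most 2.79 CPM. The log2 fold change was 0.98 (SE 0.307, adjusted p = 0.0548). Without p974s865, edgeR called Clec9a (1.02, adjusted p = 0.0361) and Clec10a (1.599, adjusted p = 0.0232) at 24h, where it called 8.83% of genes. The 24h libraries labelled Cacnb3-/- included the shallowest one, at 8237393 counts.

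Clec7a did not differ between genotypes by more than its spread in ctrl (log2 fold change -0.01, 95% interval -0.59 to 0.57) or at 0p5h (0.04, -0.56 to 0.63). At 24h it was 0.77 (SE 0.23, adjusted p = 0.0518) and, with the GC trend removed, 0.32 (SE 0.182, adjusted p = 0.281). The log2 fold change of Clec4e was -0.80 (SE 0.498, adjusted p = 0.419) in ctrl and -0.03 (95% interval -0.77 to 0.72) at 24h, where it was -0.46 (95% interval -1.26 to 0.34) with the GC trend removed. Clec4n and Clec4d had log2 fold changes of 0.19 to 0.54 over the 3 sets, and Clec12a of 0.26 to 0.68, none called. With the GC trend removed, the values at 24h, the highest of each, were 0.28 for Clec4n, 0.02 for Clec4d and 0.24 for Clec12a, from 0.46, 0.54 and 0.68. No receptor was called for a difference between genotypes in any change between sets (0.0% of genes each), and DESeq2 and limma-voom called none. With all cultures and without the block none had an unadjusted p below 0.05 there by edgeR (0.223% of genes from ctrl to 0p5h, 4.86% from ctrl to 24h and 5.88% from 0p5h to 24h). With the block, Clec7a and Clec4e passed that level from ctrl to 24h, as did 2639 of 13536 genes, and from 0p5h to 24h, as did 3817 of 13424. The values from ctrl to 24h were 0.90 and 1.21 (adjusted p = 0.233 each), and 0.55 and 0.87 with the GC trend also removed. With neither p974s865 nor the block, Clec7a passed it from ctrl to 24h (1.02, adjusted p = 0.399) and from 0p5h to 24h (1.09, adjusted p = 0.32), as did 1671 of 13602 and 1904 of 13496 genes.

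The wider receptor family and its signalling genes were set beside these. Among 25 other C-type lectin receptors, 14 to 16 were tested and none was called by edgeR in any comparison. At 24h 6 of 14 were higher and 1 lower in the libraries labelled Cacnb3-/- at an unadjusted p below 0.05, a level at which 20.1% of all genes were higher and 18.3% lower, and their median log2 fold change was 0.72 beside 0.01 over all genes. For the 34 genes of C-type lectin receptor signalling, all tested and none called in any comparison, 7 were higher and 12 lower at that level, with a median of -0.28, beside a median of 0.77 for the 9 receptors. With the GC trend removed, the medians were 0.24 for the other receptors, -0.01 for the signalling genes, of which 7 were higher and 7 lower, and 0.32 for the 9 receptors. In that fit 25.8% of all genes passed in either direction.

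Marker lists of cell state were summed in each library. The 14 genes of mature or migratory dendritic cells summed to 24000 to 33800 CPM in WT at 24h and 13700 to 22100 CPM in those labelled Cacnb3-/-. Of the 14, 8 were lower and 1 higher at an unadjusted p below 0.05, where 18.3% of all genes were lower, and none was called, with none at 0. Cacnb3 itself is one of the 8, and without it the other 13 genes summed to 21900 to 32500 CPM in WT and 13200 to 21000 CPM in those labelled Cacnb3-/-, with 7 lower and 1 higher. With the GC trend removed, 5 of the 14 were lower and none higher, where 25.8% of all genes passed in either direction. The sums in ctrl were 16600 to 33100 and 14100 to 19400 CPM, and by culture p974s864 had the lowest sum among WT, at 19900 CPM. The 14 macrophage-like genes summed to 1460 to 3540 CPM in WT and 1360 to 3520 CPM in those labelled Cacnb3-/- at 24h. Of them 1 of 14 passed, higher, where 20.1% of all genes were higher. With the GC trend removed 5 of 14 passed, all higher, where 12.1% of all genes were higher. In bulk RNA, fewer cells of a type and less RNA per cell cannot be told apart, and the part of these lists in the receptor values was not tested. From 0p5h to 24h in WT, 1 macrophage-like gene was called, Cd14, a co-receptor for lipopolysaccharide, which fell by 2.48 on the log2 scale (SE 0.507, adjusted p = 0.0396) beside Clec7a.

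Across the 30 libraries, which include 3 from each culture and so are not independent, the receptors varied together in part. Pearson's r of log2 CPM was 0.84 for the neighbours Clec4n and Clec4d, 0.83 for Clec10a and Mgl2, which share some sequence, and 0.82 for Clec9a and Mgl2. Clec4e and Mrc1 were opposed, at -0.55. Clec4e was the only receptor with any negative value, which it had with Clec10a (-0.31), Mrc1 and, close to 0, Mgl2 (-0.02). These values include differences between genotypes and sets. For deviations from group means, r was 0.83 for Clec4n and Clec4d, 0.68 for Clec10a and Mgl2 and 0.78 for Clec9a and Mgl2. Mgl2 was then at 0.793 with both Clec4n and Clec12a. Clec4e was at -0.42 with Mrc1, -0.10 with Clec10a and 0.25 with Mgl2.

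**Figure D5:**
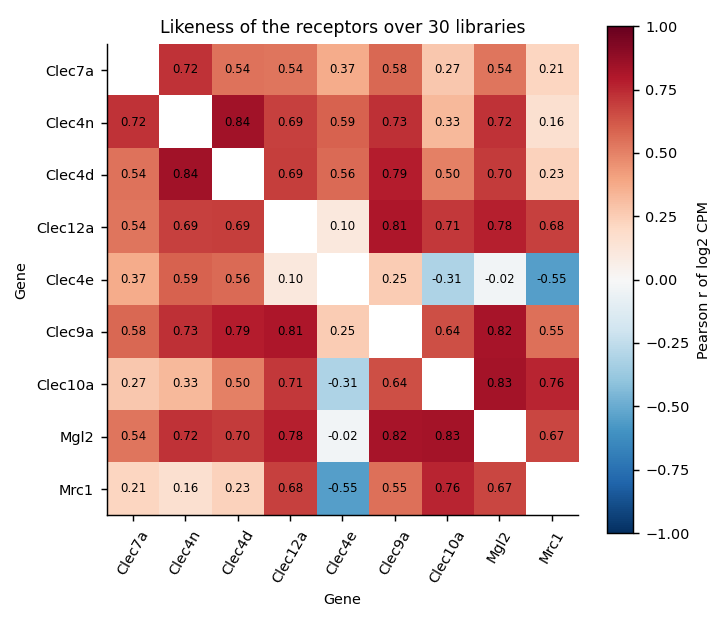
Pearson's r of log2 CPM over 30 libraries between each pair of 9 receptors, from -1 (blue) to 1 (red). Clec4n with Clec4d (0.84) and Clec10a with Mgl2 (0.83) are the highest pairs, and Clec4e with Mrc1 (-0.55) is the lowest.

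Among 13755 genes, those whose pattern over the libraries was most like a receptor's differed from one receptor to another. For Clec7a they were Cd9 (r = 0.87), which codes for a tetraspanin, P2ry10b (0.87) and the kinase gene Sgk1 (0.83). Clec4n was most like Selenon (0.90), Tfec (0.90) and Lyz2 (0.89), the lysozyme gene of myeloid cells, and Clec4d most like Pon3 (0.92), Bst1 (0.91) and Atp8b4 (0.89). Clec4e was nearest to Clmp (0.93), Sod2 (0.93), a mitochondrial superoxide dismutase, and Ppp1r12b (0.93).

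For Clec12a the 3 nearest were Slc16a10 (0.98), Cd84 (0.95) and the inhibitory receptor gene Lair1 (0.95). Mrc1 was nearest to Selenop (0.97), Cd93 (0.97) and Lat2 (0.97), and Clec10a to Gng2 (0.94), Lbh (0.92) and F13a1 (0.92), the gene of a coagulation factor subunit that macrophages express. Mgl2 was nearest to Klk1b11 (0.97), Parvb (0.92) and Klk1b1 (0.91), and Clec9a, at low counts, to Gm49339 (0.91), Pid1 (0.90) and Stard9 (0.90).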

How the data were processed

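RNA of 10 BMDC cultures (5 WT, 5 labelled Cacnb3-/-), each with the libraries ctrl, 0p5h and 24h, was analysed. The authors deposited raw read counts of 43629 genes. Per the file headers, featureCounts 1.5.1 assigned the alignments of read 1 to exons annotated in Ensembl release 79 (GRCm38), and its defaults for strand, overlaps and multiple alignments were kept. The submitters' processing notes name STAR 2.4 and mm10, while the paper's methods name GRCm39. Because strand was not used, reads of antisense genes are not separated.

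Symbols were matched by identifier to GENCODE M39 for 38984 identifiers (89.4%). Counts were tested with edgeR 4.0.16 (quasi-likelihood test, TMM factors, filterByExpr; R 4.3.3) within the groups compared, and adjusted by Benjamini-Hochberg over all tested genes. The SE is the log2 fold change divided by the square root of F, and 95% intervals are 1.96 SE to each side. 9 of the 10 receptors passed the filter on low counts in each comparison of single libraries. Levels per length are RPKM from TMM-scaled totals. Depth limits mainly Cd209a and Clec9a. Alternatives were DESeq2 1.42.0, limma 3.58.1 (voom), other scalings and filters, a GC trend, lane, the culture as a block and each culture left out. The fitting code was run on simulated counts with a smaller spread than these data. That run checks the code and does not measure error rates at the spread of these cultures. For pairing, deviations of same-culture libraries from their group means correlated above 0.1 in 29 of 30 pairs (median 0.609, lowest 0.0746, between ctrl and 24h of p974s843, over 13755 genes), against a median of -0.219 for other pairs. Libraries of a culture are therefore paired, but the main fits hold no block, as the study's methods name none. Fits with the culture as a block are alternatives. In 24h against ctrl of those labelled Cacnb3-/- the other 4 pairs were at 0.428 to 0.703.

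The receptors and gene lists were chosen with earlier results of these data known. Named in the text are the 10 receptors, Cacnb3, Fcer1g, Tyrobp, Syk, Card9 and Ptpn6, the 3 genes with the highest Pearson's r to each receptor, the 3 genes of the other receptor list with the highest level per length, any list gene called, and markers of the cell types. Lists of type 1 conventional and plasmacytoid dendritic cells, dendritic cell identity, granulocytes, mast cells, B, T and NK cells and erythroid cells were also tested, with no gene called.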

Additional observations from a re-analysis of the deposited data

Results flagged for a closer look

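In each group of 5 libraries, the highest and lowest level of each receptor was compared with its neighbour. The gap was divided by the group's range, and values above 0.71 were marked, which chance alone does in about 1 in 20 groups. Of 60 groups 2 were marked.

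Mrc1 in WT ctrl was at 90.68 CPM in p974s864, where the next culture was at 23.96 CPM and the lowest at 2.378 CPM, a gap of 0.756 of the range. The same culture was also the highest WT culture at 0p5h and 24h for Mrc1. Clec9a at 24h in the libraries labelled Cacnb3-/- was at 2.791 CPM in p974s843, the shallowest library, where the next was at 1.443 CPM, a gap of 0.836 of the range. No receptor was called for a difference between genotypes in a change between sets.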

How the results depend on the processing

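Without the block, members called changed from 0 to 1 under DESeq2 for Cacnb3-/- over WT in ctrl, 0p5h and the sums, and to 2 at 24h, where omitting the filter on low counts or fitting all 30 libraries together gave 1. For WT 24h against 0p5h the 1 called became 3 with sequencing lane as a covariate. Each WT culture had its 0p5h and 24h libraries in the same lane, so lane separates cultures here and not these sets. With the replicate block the count became 3 in edgeR (228 of 12830 genes called), 3 in DESeq2 and 2 with the GC trend removed as well (231 of 12830 genes). With the replicate block in edgeR (122 of 13176 genes called) and DESeq2, 0 became 1 for WT 24h against ctrl, which fell back to 0 with the GC trend also removed (150 of 13176 genes). For Cacnb3-/- 24h against ctrl and against 0p5h, 0 became 1 under the block in edgeR, in DESeq2 and with the GC trend removed. In both that receptor was Mgl2. There edgeR with the block called 138 of 12452 and 367 of 12730 genes, and 93 and 282 with the GC trend also removed. Shares of all genes for DESeq2 with the block are not given here. The block changed no other call. The cause of these differences was not tested.

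Leaving out 1 culture at a time gave 0 to 2 called between genotypes in ctrl and in the sums, 0 to 3 at 24h, 0 to 1 for WT 24h against 0p5h, and 0 in all others. Over 1971 values of single receptors under an alternative, 1935 kept their side of the threshold or level, 31 gained a call, 4 lost one, 1 level moved and none changed direction where p was below 0.05 in either fit. RPKM from plain totals moved no receptor by more than its SD. RPKM over unshared exon bases, added after seeing the data, moved Clec7a from 119 to 175. Without Cacnb3 in its list, also added after seeing the data, the genes of mature or migratory dendritic cells lower at 24h went from 8 to 7. Counting depth limits Cd209a and Clec9a, and 5 cultures a genotype limit the rest.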
